A study of Schizosaccharomyces pombe with 8 samples.

Results

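The mRNA reads recovered with TAP-Mmi1 were set directly against those recovered with GFP-Mmi1 in fission yeast, Schizosaccharomyces pombe. The mRNAs were the 5125 ids whose systematic name starts with SPAC, SPBC, SPCC, SPAP, SPBP or SPCP, out of 6973 named features in the count files. RefSeq annotated 5105 of them as protein-coding genes and 4 as pseudogenes, and 16 were not found there. Of the 5125 mRNAs, 5058 passed a filter on low counts and were tested, and 67 did not pass it. No measured value was used to choose the 5125, whereas the filter used their counts in the 4 IP libraries.

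The tested strain carried Pnmt41-TAP-Mmi1 and Pnmt1-3xFLAG-Mei2, and the negative control carried Pnmt41-GFP-Mmi1 and Pnmt1-3xFLAG-Mei2. Both tagged proteins were therefore made from thiamine-repressible nmt promoters in every library, the mild nmt41 for Mmi1 and the strong nmt1 for Mei2, and no library came from untagged cells. Mitotic cells grown at 30 °C were fixed with 0.2% formaldehyde, and RNA was recovered by IgG beads, which bind the TAP tag, followed by anti-FLAG beads, which bind Mei2. There were 2 biological replicates of the immunoprecipitate (IP) and 2 of the whole cell extract (WCE) for each strain, and the comparison used the 4 IP libraries.

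Mmi1 is an RNA-binding protein of the YTH family that, during mitotic growth, binds meiotic transcripts and delivers them to the nuclear exosome for destruction. Its sites are copies of the hexamer TNAAAC, in DNA letters, which cluster in regions known as determinants of selective removal. Mei2 is the RNA-binding protein that starts meiosis and opposes Mmi1. The pulldown read RNA held in a complex with both proteins, and in the GFP-Mmi1 strain IgG had no TAP tag to bind.

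Windows of 120 bases are printed for the 5 named mRNAs with a larger share in the TAP-Mmi1 IP that held at least 4 TNAAAC sites in a coding window of that size, since such clusters are the sequence that Mmi1 is known to read. Each window starts at a site and lies within a coding exon; the sense strand is given 5′ to 3′ in DNA letters from RefSeq (ASM294v3), with TNAAAC in capitals. The window of num1, also named mcp5, was at chrII:899614-899733 on the plus strand, that of mug8 at chrI:2446819-2446938 on the plus strand, and that of ssm4 at chrI:4535150-4535269 on the minus strand. The window of mei4 was at chrII:1473878-1473997 on the plus strand and that of mug9 at chrIII:2369329-2369448 on the minus strand.
num1: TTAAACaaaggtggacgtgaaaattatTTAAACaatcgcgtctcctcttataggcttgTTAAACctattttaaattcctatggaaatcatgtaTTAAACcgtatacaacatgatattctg
mug8: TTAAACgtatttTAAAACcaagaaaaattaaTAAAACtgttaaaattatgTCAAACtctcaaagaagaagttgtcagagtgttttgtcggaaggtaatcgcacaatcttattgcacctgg
ssm4: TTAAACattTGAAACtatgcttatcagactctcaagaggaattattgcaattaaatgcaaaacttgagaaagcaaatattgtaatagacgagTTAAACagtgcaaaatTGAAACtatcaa
mei4: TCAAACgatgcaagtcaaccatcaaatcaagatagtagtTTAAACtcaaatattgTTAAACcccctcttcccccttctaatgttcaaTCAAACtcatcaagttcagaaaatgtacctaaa
mug9: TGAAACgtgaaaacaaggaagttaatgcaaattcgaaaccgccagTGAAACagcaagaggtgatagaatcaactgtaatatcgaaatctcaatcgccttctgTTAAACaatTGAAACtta

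TNAAAC on the sense strand was present in 90.7% of the 5109 annotated mRNA spans, introns and untranslated parts included, with a median of 3 sites per span. In 633 of these spans a site lay in an intron. A coding window of 120 bases with at least 4 sites was present in only 17 of these mRNAs (0.333%). Overlapping matches were all counted, and matches on the opposite strand (GTTTNA in the sense letters) were counted apart. A match is a description of the sequence and was not tested as a binding site.

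The 2 TAP-Mmi1 IP libraries held 4841024 and 4517897 mRNA counts, and the 2 GFP-Mmi1 IP libraries held 980583 and 1014818. These were 13.3% and 11.95% of all counts with TAP-Mmi1, against 2.84% and 2.95% with GFP-Mmi1, most of the rest being rRNA (79.2% and 82.0% with TAP-Mmi1, 96.4% and 96.0% with GFP-Mmi1). Each library was scaled to its own mRNA total, so every value below is a share of the mRNA reads, in RPM (reads per 1000000 mRNA reads). A smaller share cannot be told apart from the same amount of that mRNA among more reads of others. When libraries were instead scaled to all listed features, the median mRNA moved by 2.12 on the log2 scale and 4491 mRNAs were higher with TAP-Mmi1. A count of 3 corresponded to 0.620 and 0.664 RPM with TAP-Mmi1, against 3.06 and 2.96 with GFP-Mmi1, so low mRNAs were resolved less well in the control. For the 58 named mRNAs with at least 50 counts in each of the 4 libraries, the 95% Wilson interval was at most 24.7% of the value to either side, which covers counting error only.

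Of the 5058 mRNAs tested, 1094 had a larger share of the mRNA reads in the TAP-Mmi1 IP (21.6%) and 857 had a smaller share (16.9%), by edgeR's quasi-likelihood test at a Benjamini-Hochberg adjusted p under 0.05. The 1094 mRNAs with a larger share made up 43.0% and 46.5% of the mRNA reads of the TAP-Mmi1 IP libraries, against 11.4% and 11.6% of those of the GFP-Mmi1 IP. The 857 with a smaller share made up 15.9% and 15.8% in the TAP-Mmi1 IP, against 47.7% and 48.6% in the GFP-Mmi1 IP. The median log2 difference was 1.57 among the larger shares, also when the 4 of them with no count in the GFP-Mmi1 IP were set at a lower bound, and -1.32 among the smaller shares. The difference was at least 1 on the log2 scale for 928 of the larger and 646 of the smaller shares. In every called mRNA the values of both TAP-Mmi1 IP libraries lay on the same side of both GFP-Mmi1 IP libraries. Of all 5125 mRNAs, both lay above in 2003 and below in 1560, so this separation is no further support for the calls. Fewer mRNAs were called without either TAP-Mmi1 IP replicate, but these fits also changed the spread that the test used. The common dispersion, a measure of the spread between replicates, was 0.062 with all 4 IP libraries. Without TAP-Mmi1 IP replicate 1 or 2 it rested on the GFP-Mmi1 IP replicates alone and was 0.095 each time. Without GFP-Mmi1 IP replicate 1 or 2 it was 0.041. The change in calls therefore does not show which replicates they rested on.

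**Figure D1:**
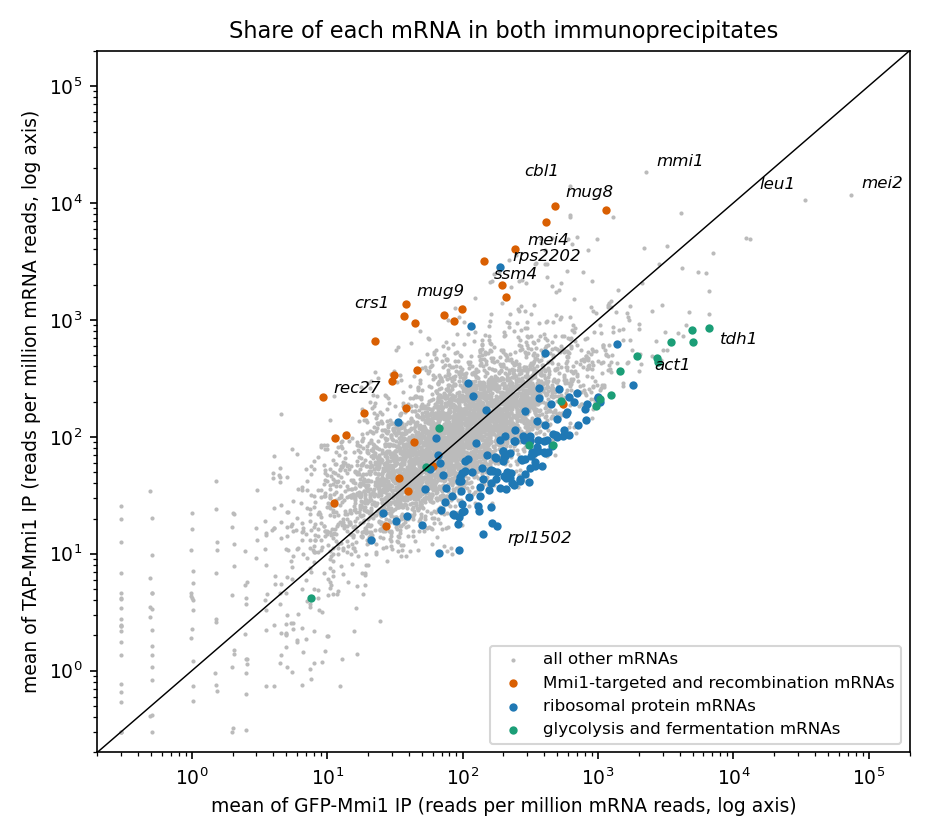
Mean share of each of the 5125 mRNAs in the 2 TAP-Mmi1 IP libraries (vertical) and the 2 GFP-Mmi1 IP libraries (horizontal), in RPM on log axes, with means too low for the axes drawn at the low edge and the line marking equal shares. Orange points of the meiotic lists lie mostly above the line, with mug9 35.6-fold higher in the TAP-Mmi1 IP, while blue ribosomal protein and green glycolysis points lie mostly below it.

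The order of the mRNAs also differed between the immunoprecipitates. Spearman's rho across the 5125 mRNAs was 0.966 between the TAP-Mmi1 IP replicates and 0.914 between the GFP-Mmi1 IP replicates, and between 0.6805 and 0.723 across the strains. The TAP-Mmi1 IP had a rho between 0.654 and 0.7045 with the 4 WCE libraries, and the GFP-Mmi1 IP had a rho between 0.900 and 0.939 with them. Of the 100 mRNAs with the highest mean share, the TAP-Mmi1 IP had 28 in common with the WCE and the GFP-Mmi1 IP had 84, with 32 common to both IPs. These values are descriptions across genes, which are not independent replicates and share the library and its depth.

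The 17 gene lists were chosen with earlier results of these data known, so their ranking is a description only. Among them, the meiotic mRNAs known as targets of Mmi1 had the highest median log2 difference. Of 13 such mRNAs, 12 had a larger share in the TAP-Mmi1 IP and none a smaller one, with a median log2 difference of 4.05 beside 0.12 for all mRNAs tested. Together they made up 4.15% and 3.81% of the mRNA reads in the TAP-Mmi1 IP, against 0.225% and 0.356% in the GFP-Mmi1 IP. The remaining member was mei3, the inhibitor of the Pat1 kinase that allows entry into meiosis, with 22.9 and 31.9 RPM against 17.3 and 4.93 and an adjusted p of 0.18. The median of the list stayed between 3.73 and 4.52 under 11 alternatives that kept an mRNA total, with 12 or 13 of the 13 members called, or 11 of 12 when overlapped mRNAs were left out.

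The meiotically upregulated gene mug9 (SPCC70.09c) had 1482 and 1232 RPM in the TAP-Mmi1 IP, against 30.6 and 45.3 in the GFP-Mmi1 IP. Among called mRNAs with at least 50 counts in both TAP-Mmi1 IP libraries and more than 3 in the control, this was the largest difference, at 5.16 ± 0.25 on the log2 scale (SE, n = 2 libraries each, edgeR adjusted p = 9.36e-08), or 35.6-fold. The mRNA of crs1 (SPBC2G2.09c), a meiosis-specific cyclin, had 1105 and 1057 RPM with TAP-Mmi1, against 19.4 and 54.2 with GFP-Mmi1. Its log2 difference was 4.87 ± 0.35 (adjusted p = 1.22e-06), or 5.80 without GFP-Mmi1 IP replicate 2, and 37.2% of its span overlapped a neighbouring gene. In both mRNAs the TAP-Mmi1 libraries lay close together and far above the control.

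The mRNA of ssm4 (SPAC27D7.13c), a dynactin subunit used in the nuclear movements of meiotic prophase, had 3303 and 3126 RPM in the TAP-Mmi1 IP, against 87.7 and 198 in the GFP-Mmi1 IP. For mei4 (SPBC32H8.11), the forkhead transcription factor of middle meiosis, the values were 4356 and 3739, against 208 and 282. The log2 differences were 4.49 ± 0.34 for ssm4 (adjusted p = 1.76e-06), or 5.20 without GFP-Mmi1 IP replicate 2, and 4.05 ± 0.24 for mei4 (adjusted p = 1.76e-07). The mRNA of num1 (SPBC216.02), which anchors dynein at the cell cortex in meiosis, had 7181 and 6553 RPM, against 310 and 516, a log2 difference of 4.05 ± 0.27 (adjusted p = 4.28e-07). The spans of 2 non-coding RNAs cover all of num1, and the counting is not stated to use strand, so reads of these features could not be told apart. In the WCE, ssm4, mei4 and num1 had fold differences between the strains far smaller than in the IP, with log2 differences of -0.16, -0.31 and -0.04.

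**Figure D2:**
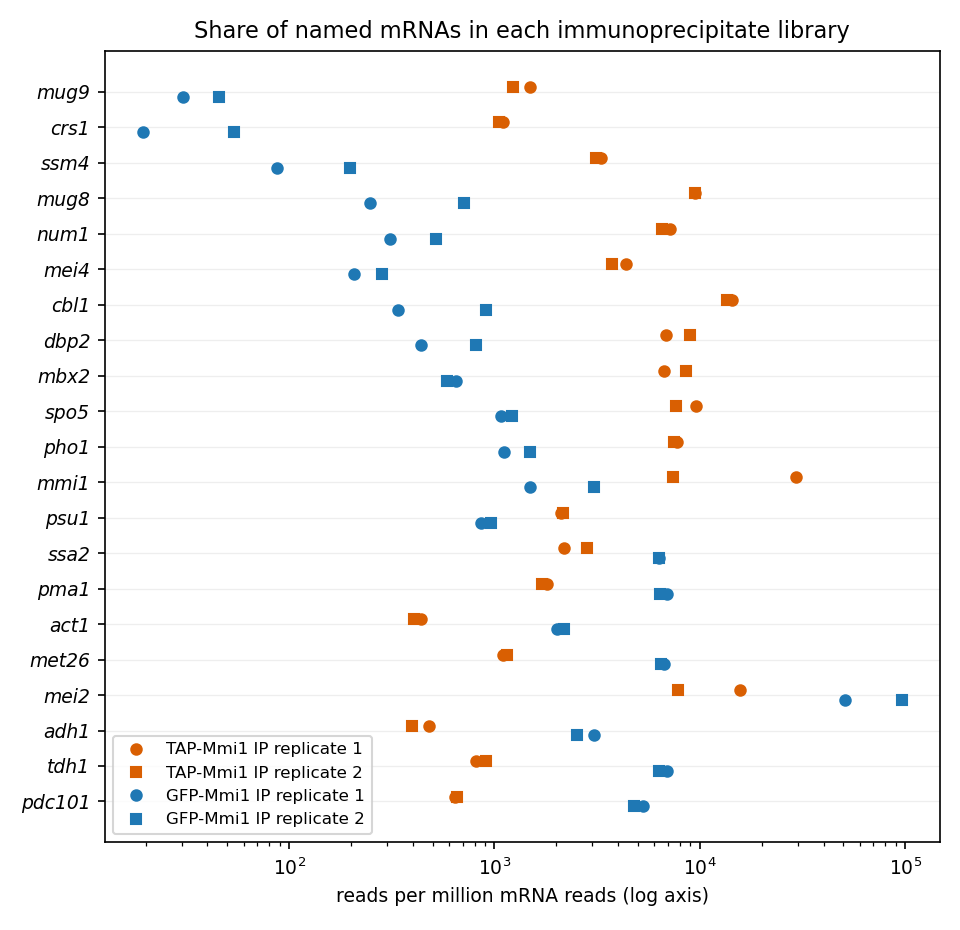
Share of 21 named mRNAs in each IP library, in RPM on a log axis; orange symbols are TAP-Mmi1 IP libraries and blue symbols GFP-Mmi1 IP libraries, circles replicate 1 and squares replicate 2. From mug9 to psu1 both TAP-Mmi1 libraries lie above both GFP-Mmi1 libraries, although mmi1 did not pass the test, and from ssa2 to pdc101 both lie below them.

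The mRNA of mug8 (SPAC32A11.01), another meiotically upregulated gene, took up 9505 and 9445 RPM in the TAP-Mmi1 IP, against 248 and 711 in the GFP-Mmi1 IP. Its log2 difference was 4.30 ± 0.47 (adjusted p = 0.000178), or 5.26 without GFP-Mmi1 IP replicate 2. That of spo5 (SPBC29A10.02), a meiotic RNA-binding protein, had 9541 and 7685 RPM, against 1078 and 1219, a difference of 2.91 ± 0.23 (adjusted p = 9.71e-07). Both were among the 10 mRNAs with the largest gain of share, at 0.900 percentage points for mug8 and 0.746 for spo5.

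Several of the largest gains of share were of mRNAs outside the meiotic lists. The gene cbl1 (SPCC11E10.01) had 14313 and 13556 RPM in the TAP-Mmi1 IP, against 341 and 905 in the GFP-Mmi1 IP, a gain of 1.33 percentage points. Its log2 difference was 4.48 ± 0.44 (adjusted p = 3.65e-05), or 5.35 without GFP-Mmi1 IP replicate 2. The intron-containing mRNA of the DEAD-box RNA helicase dbp2 had 6829 and 8918 RPM, against 437 and 810, a log2 difference of 3.66 ± 0.30 (adjusted p = 1.09e-06), and 4 of its 7 TNAAAC sites lay in introns. The transcription factor mRNA mbx2, all of whose span is covered by a non-coding RNA, had 6661 and 8606 RPM, against 650 and 584. The acid phosphatase mRNA pho1 had 7735 and 7448, against 1112 and 1481. The log2 differences were 3.63 ± 0.24 for mbx2 (adjusted p = 3.84e-07) and 2.55 ± 0.23 for pho1 (adjusted p = 1.95e-06). In all of these the replicates of each IP lay closer to each other than to the other strain. The remaining named gains were rmr1, with a log2 difference of 3.69, and aga1, with 3.45.

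Among the 10 largest log2 differences with at least 50 counts in both TAP-Mmi1 IP libraries, 5 rested on at most 3 counts in the control libraries together, and the fitted difference is no measure of size for them. The mRNA of aim41 had 134 and 106 counts with TAP-Mmi1, against 0 and 0 with GFP-Mmi1, which is at least 7.67-fold higher when the lower TAP-Mmi1 share is set against a floor of 3 counts per control library. The small gene SPAC513.04, with 71 and 114 counts against 0 and 0, was at least 4.79-fold higher on the same floor, and its adjusted p was 0.066 without TAP-Mmi1 IP replicate 2. SPAC57A7.15c had 318 pooled counts against 1, a ratio of 67.8 with a 95% counting interval of 12.1 to 2686. The ratio was 39.9 for SPAC22G7.03 (187 counts against 1, 7.07 to 1583), 63.7% of whose span overlapped another feature, and 27.4 for mnh1 (386 counts against 3, 9.32 to 134). The call of SPAC22G7.03 was lost without TAP-Mmi1 IP replicate 2, where its adjusted p was 0.091. The gene SPCC330.19c had 147 and 169 RPM in the TAP-Mmi1 IP, against 8.16 and 0.985, with no TNAAAC site in its span and 78.3% of the span shared with a non-coding RNA. Its log2 difference was 5.11 ± 0.56 (adjusted p = 1.07e-05), with 7.27 without GFP-Mmi1 IP replicate 1 and 4.27 without replicate 2.

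Genes of meiotic recombination and sister chromatid cohesion made up the next group. Of 19 members, 14 had a larger share in the TAP-Mmi1 IP and 1, dmc1, a smaller one, with a median log2 difference of 3.04. The share of the list was 0.935% and 0.947% in the TAP-Mmi1 IP, against 0.148% and 0.175% in the GFP-Mmi1 IP. Its members rec8, rec10 and mcp7 also belong to the list of Mmi1 targets. With all 19 members tested, the number called larger ranged from 12 to 14 over the alternatives that kept an mRNA total, and 8 of 10 were called larger when overlapped mRNAs were left out.

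Within that group, rec27, which encodes a component of the linear elements on meiotic chromosomes, had 297 and 143 RPM in the TAP-Mmi1 IP, against 1.02 and 17.7 in the GFP-Mmi1 IP. Its log2 difference was 4.53 ± 0.74 (adjusted p = 0.00167), between 3.63 and 7.71 when single libraries were left out, and 97.7% of its span overlapped the gene SPBC577.04. The mRNA of mcp7, needed for meiotic recombination, had 624 and 707 RPM, against 3.06 and 42.4, so that the control replicates differed widely. The log2 difference was 4.86 ± 0.88 (adjusted p = 0.0215), with 3.97 without GFP-Mmi1 IP replicate 1 and 7.75 without replicate 2. The meiotic cohesin rec8 had 1268 and 1216 RPM, against 54.05 and 145, and the linear element protein rec25 had 1149 and 1046, against 70.4 and 75.9. These last members, rec8 and rec25, were chosen after their values were seen. The meiosis-specific recombinase dmc1 went the other way, with 163 and 215.8 RPM against 559 and 552, a log2 difference of -1.55 ± 0.21 (adjusted p = 6.49e-05). A non-coding RNA covers all of the span of dmc1.

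Genes of sporulation and of the mating pheromone pathway had calls in both directions. Of 23 sporulation mRNAs, 5 had a larger share and 4 a smaller share, with a median log2 difference of 0.09, and of 21 pheromone pathway mRNAs, 3 were larger and 6 smaller, with a median of -0.35. The sporulation shares of 21.7% larger and 17.4% smaller were near those of all mRNAs tested (21.6% and 16.9%), and the pheromone pathway had 14.3% and 28.6%. Without GFP-Mmi1 IP replicate 1 the pheromone pathway had 6 larger and 5 smaller shares, and without replicate 2 it had 3 and 10. The sign of both medians changed under some of the alternatives, over ranges of -0.12 to 0.18 and of -0.85 to 0.04. The chitin synthase mRNA chs1 had 2044 and 2274 RPM in the TAP-Mmi1 IP, against 94.8 and 235 in the GFP-Mmi1 IP, a log2 difference of 3.71 ± 0.38 (adjusted p = 9.73e-05), or 4.51 without GFP-Mmi1 IP replicate 2. The spore surface protein mRNA isp3 had 615 and 707, against 2943 and 2459, a difference of -2.03 ± 0.20 (adjusted p = 3.80e-06), with 62.5% of its span under a non-coding RNA. The septin mRNA spn2 also had a smaller share, with a difference of -1.37, and 99.2% of its span was shared with other features.

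In the pheromone pathway, the formin mRNA fus1, which acts in cell fusion, had 2261 and 1838 RPM in the TAP-Mmi1 IP, against 295 and 289 in the GFP-Mmi1 IP. The pheromone receptor mRNA mam2 had 638 and 675, against 145 and 96.6. The log2 differences were 2.81 ± 0.20 for fus1 (adjusted p = 4.82e-07), 70.0% of whose span was shared with other features, and 2.44 ± 0.23 for mam2 (adjusted p = 3.17e-06). The cell surface protein mRNAs mam3 and map4 had differences of -2.07 ± 0.22 (adjusted p = 8.47e-06) and -1.66 ± 0.20 (adjusted p = 2.30e-05), although their spans held 19 and 12 TNAAAC sites. Both values of map4 in the TAP-Mmi1 IP, 323 and 426 RPM, lay below the 1266 and 1096 of the GFP-Mmi1 IP.

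Of 23 mRNAs for the RNA elimination machinery with which Mmi1 works, 8 had a larger share in the TAP-Mmi1 IP (34.8%) and 1 a smaller share (4.35%), beside 21.6% and 16.9% of all mRNAs tested, with a median log2 difference of 0.46. Larger shares made up 28.4% and 27.2% of mRNAs tested in the 2 lowest quartiles of mean WCE share per kb. Smaller shares made up 1.40% and 3.45% there, and the list was not matched for WCE level. The exosome subunit mRNA rrp43 had 200 and 342 RPM, against 27.5 and 54.2, a difference of 2.73 ± 0.37 (adjusted p = 6.49e-05). The mRNA of erh1, whose protein is the constant partner of Mmi1, had 31.2 and 40.3 RPM, against 9.18 and 2.96, from 9 and 3 counts in the control. Its difference of 2.56 ± 0.73 (adjusted p = 0.0140) was 3.58 without GFP-Mmi1 IP replicate 1 and 1.96 without replicate 2, and the call was lost without either TAP-Mmi1 IP replicate, with values of 2.72 and 2.36. The smaller share was of the RNA helicase mRNA mtr4, at -0.84 ± 0.23 (adjusted p = 0.0113), a call that was lost at -0.68 without TAP-Mmi1 IP replicate 2. In the Ccr4-Not complex, which contains the ubiquitin ligase Mot2, 1 of 7 mRNAs was larger and 1 smaller (14.3% each, near the 21.6% and 16.9% of all mRNAs tested), with a median of 0.49. These were not2 at 1.43, not called without TAP-Mmi1 IP replicate 1 (1.34) or 2 (1.52), and caf1 at -1.47, not called without TAP-Mmi1 IP replicate 1 (-1.13) or GFP-Mmi1 IP replicate 2 (-1.10).

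**Figure D3:**
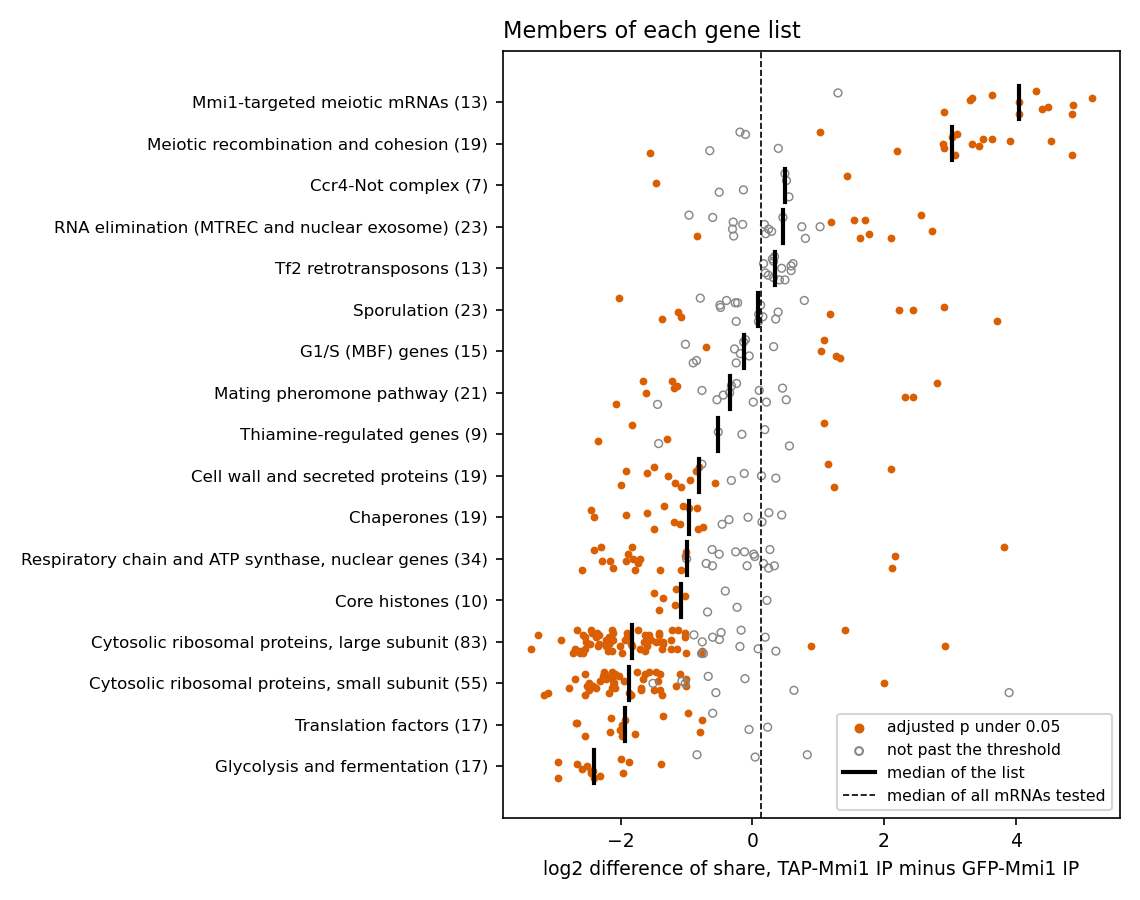
Log2 difference of share, TAP-Mmi1 IP minus GFP-Mmi1 IP, for each tested member of 17 gene lists, with the number of members in brackets; filled points passed the threshold, open points did not, thick bars are list medians and the dashed line is the median of all mRNAs tested (0.12). The 2 lists with the highest medians are the Mmi1 targets (4.05) and recombination genes (3.04), and the lowest is glycolysis and fermentation (-2.40). The lists were chosen with earlier results of these data known.

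The mRNAs of abundant housekeeping genes lay at the other end. Of 17 glycolysis and fermentation mRNAs, 14 had a smaller share in the TAP-Mmi1 IP (82.4%) and none a larger share, with a median log2 difference of -2.40. Smaller shares made up 16.9% of all mRNAs tested and 52.5% of those in the highest quartile of mean WCE share per kb. Their summed share was 0.572% and 0.611% of the mRNA reads in the TAP-Mmi1 IP, against 3.49% and 3.22% in the GFP-Mmi1 IP. Under each of the 11 alternatives that kept an mRNA total 14 members were called smaller, and the median of the list was -0.28 when libraries were scaled to all listed features.

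The glyceraldehyde-3-phosphate dehydrogenase mRNA tdh1, which held no TNAAAC site, had 812 and 906 RPM in the TAP-Mmi1 IP, against 6903 and 6346 in the GFP-Mmi1 IP. The pyruvate decarboxylase mRNA pdc101 had 645 and 656, against 5286 and 4753. The log2 difference was -2.95 for both, with an SE of 0.22 for tdh1 (adjusted p = 5.90e-07) and 0.21 for pdc101 (adjusted p = 4.82e-07), and the fold was 7.71 and 7.72 in favour of the GFP-Mmi1 IP. The alcohol dehydrogenase mRNA adh1 had 477 and 397 RPM, against 3052 and 2524, and the enolase mRNA eno101 had 664 and 966, against 5118 and 4719. The actin mRNA act1, a common control in such experiments, had 437 and 407, against 2014 and 2176, a difference of -2.31 ± 0.19 (adjusted p = 9.96e-07). In all of these both TAP-Mmi1 values lay below both GFP-Mmi1 values, with the widest gap between TAP-Mmi1 replicates for eno101.

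The mRNAs of the translation machinery went the same way. Of 55 small subunit ribosomal protein mRNAs, 46 had a smaller share in the TAP-Mmi1 IP (83.6%) and 1 a larger share, with a median log2 difference of -1.88. Of 83 large subunit mRNAs, 68 were smaller (81.9%) and 3 larger, with a median of -1.82. Of 17 translation factor mRNAs, 14 were smaller (82.4%) and none larger, with a median of -1.93. Among all mRNAs tested 16.9% were smaller and 21.6% larger. In the highest quartile of mean WCE share per kb 52.5% were smaller and 7.99% larger. Among the shortest quartile of spans there, 56.6% were smaller and 7.28% larger. When libraries were scaled to all listed features the 3 medians were 0.26, 0.29 and 0.17, so their direction held for the share of mRNA reads and not for the share of all reads. Without single libraries or under other scalings of the mRNA reads, 42 to 49 of the 55 small and 56 to 70 of the 83 large subunit mRNAs were called smaller. Many of these genes are near-identical pairs, between which the deposited counting could have split reads.

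Among called mRNAs with at least 50 counts in both GFP-Mmi1 IP libraries, the lowest log2 differences belonged to this group. The mRNA of rpl1502 had 24.4 and 10.2 RPM in the TAP-Mmi1 IP, against 207 and 152 in the GFP-Mmi1 IP, a difference of -3.37 ± 0.43 (adjusted p = 3.76e-05), or -4.13 without TAP-Mmi1 IP replicate 1. Those of rpl3401 and rps1502 had differences of -3.26 and -3.16, that of rpl3401 being -2.60 without GFP-Mmi1 IP replicate 1. The mRNA of rps2201 had 19.2 and 2.21 RPM, against 103 and 83.8, so its difference of -3.11 was -5.36 without TAP-Mmi1 IP replicate 1 and -2.28 without replicate 2. The elongation factor 1-alpha mRNAs tef101 and tef102, which are near-identical copies, had differences of -2.68 and -2.66. Outside translation and glycolysis, the named mRNAs of this kind were the ubiquitin-conjugating enzyme ubc13 at -3.05, the mitochondrial porin por1 at -2.88 and the protein translocation subunit sec62 at -2.88.

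A few ribosomal protein mRNAs went the other way. The mRNA of rpl3002 had 816 and 946 RPM in the TAP-Mmi1 IP, against 75.5 and 157 in the GFP-Mmi1 IP, a log2 difference of 2.92 ± 0.29 (adjusted p = 5.45e-06), or 3.54 without GFP-Mmi1 IP replicate 2. Of its 3 TNAAAC sites, 2 lay in its intron. Intron sites also occurred in mRNAs with a smaller share, such as 2 of the 3 sites of ubc13. The mRNA of rps3001 had 117 and 149, against 11.2 and 55.2, and its difference of 1.99 (adjusted p = 0.0105) was 1.27 without GFP-Mmi1 IP replicate 1 and 3.56 without replicate 2. That of rpl102, 75.1% of whose span is shared with a non-coding RNA, had a difference of 1.41. The highest value of the small subunit list did not pass the test and was noticed after its values were seen. This was rps2202, with 2973 and 2647 RPM against 63.2 and 312, a difference of 3.901 ± 0.98 with an adjusted p of 0.076, its control replicates being far apart.

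The other housekeeping lists had smaller medians in the same direction, which was turned for each of them when libraries were scaled to all listed features. Of all mRNAs tested, 16.9% had a smaller share. In the highest quartile of mean WCE share per kb 52.5% did, with a median log2 difference of -0.77, near the values of several of these lists. Of 19 chaperone mRNAs, 13 had a smaller share (68.4%) and none a larger share (median log2 difference -0.97), led by sks2 at -2.46 and hsp9 at -2.40. Of 10 core histone mRNAs, 6 were smaller (60%) and none larger (median -1.09), led by htb1 at -1.50 and hta1 at -1.42. Fewer histone shares were called smaller without TAP-Mmi1 IP replicate 2, where the median of the list was -0.95. Some of these genes are near-identical copies, and a non-coding RNA covers all of hta1. Of 34 nuclear genes of the respiratory chain and ATP synthase, 17 were smaller (50%) and 3 larger (8.82%), with a median of -1.001. The ATP synthase subunit atp2 was at -2.41 and tim18, which the list held under the name sdh4, at -2.59. The larger shares included cox12, with 271 and 324 RPM against 22.4 and 19.7, a difference of 3.82 ± 0.31 (adjusted p = 1.01e-06), and 2 of its 3 TNAAAC sites lay in an intron. They also included qcr9 at 2.17, which held no TNAAAC site and shared 77.3% of its span with another gene.

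Of 19 cell wall and secreted protein mRNAs, 11 had a smaller share (57.9%) and 3 a larger share (15.8%), with a median log2 difference of -0.81. The highest quartile of mean WCE share per kb had 52.5% smaller and 7.99% larger shares, with a median of -0.77. The endoglucanase mRNA eng1 had 810 and 1079 RPM in the TAP-Mmi1 IP, against 191 and 246 in the GFP-Mmi1 IP, a difference of 2.11 ± 0.22 (adjusted p = 6.19e-06), and psu1 had a difference of 1.23. The plasma membrane proton pump mRNA pma1 had 1793 and 1711, against 6946 and 6365, a difference of -1.93 ± 0.21 (adjusted p = 9.23e-06), and adg2 had a difference of -1.99. The methionine synthase mRNA met26 and the Hsp70 mRNA ssa2 were also among the 10 largest losses of share, with differences of -2.54 and -1.34. Of 15 genes of the G1/S transition, 4 were larger and 1 smaller (26.7% and 6.67%, beside 21.6% and 16.9% of all mRNAs tested; median -0.13), with the replication licensing factor cdc18 at 1.34, the transcription factor res1 at 1.28 and the ribonucleotide reductase mRNA cdc22 at -0.70. The call of cdc22 was lost at -0.62 without TAP-Mmi1 IP replicate 1, and the median of this list turned under some alternatives (-0.27 to 0.09). None of 13 Tf2 retrotransposon copies passed the test by edgeR or by DESeq2, and 1 had an unadjusted p under 0.05 by edgeR, with adjusted p-values of 0.081 for Tf2-6 and 0.39 for Tf2-1 and a median of 0.34, although 4 were called larger when all 8 libraries were fitted, 1 without GFP-Mmi1 IP replicate 1 and all 13 when libraries were scaled to all listed features. Reads of these near-identical copies could not be assigned with certainty.

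The genes of the tagged proteins were among the most abundant mRNAs in the pulldowns. The mRNA of mei2 had 15730 and 7807 RPM in the TAP-Mmi1 IP, against 50908 and 96175 in the GFP-Mmi1 IP, a log2 difference of -2.64 ± 0.39 (adjusted p = 0.000175), or -3.24 without TAP-Mmi1 IP replicate 1. Its loss of 6.18 percentage points was the largest of any mRNA, and in the 4 WCE libraries it lay between 6172 and 6747 RPM. With libraries scaled to all listed features the difference of mei2 was -0.50 and did not pass the test (edgeR adjusted p = 0.38). The mRNA of mmi1 had 29318 and 7394, against 1484 and 3062, the largest gain of mean share (1.61 percentage points), but its replicates differed too much to pass the test (log2 difference 3.01 ± 0.89, adjusted p = 0.077). The difference was 1.70 without TAP-Mmi1 IP replicate 1 and 3.69 without replicate 2. With 1 TAP-Mmi1 library left, the spread between the TAP-Mmi1 replicates does not enter these fits. The mmi1 difference was past the threshold under TMM, DESeq2, totals without mei2 and mmi1 or over all listed features, and a fit of all 8 libraries. In the WCE mmi1 had 692 and 673 RPM in the TAP-Mmi1 strain, against 566 and 589 in the GFP-Mmi1 strain.

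The TAP-Mmi1 IP replicates of leu1, apc10, nmt1 and hel2 differed by a larger factor than the means of the strains did. The mRNA of leu1 had 18178 and 3190 RPM in the TAP-Mmi1 IP, against 23786 and 44199 with GFP-Mmi1, and lay between 232 and 299 in the WCE. Its annotated neighbour apc10 had 9013 and 934, against 8822 and 15924, and between 13.8 and 16.3 in the WCE. The thiamine-repressed gene nmt1, whose span is covered by a non-coding RNA, had 7919 and 1982, against 11710 and 14873, and its neighbour hel2, which was chosen after its values were seen, had 4801 and 790, against 3055 and 5275. The shares of leu1, apc10 and hel2 in every IP library lay above those in every WCE library. None of the 4 passed the test, with adjusted p-values of 0.33 for leu1, 0.58 for apc10, 0.22 for nmt1 and 0.77 for hel2. Without TAP-Mmi1 IP replicate 1 the log2 differences of leu1, nmt1 and apc10 were -3.41, -2.75 and -3.73, and without replicate 2 they were -0.90, -0.75 and -0.46. With 1 TAP-Mmi1 library left, the spread between the TAP-Mmi1 replicates does not enter these fits. The reason for these levels was not tested.

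These 4 mRNAs with mmi1 and mei2 made up 8.50% and 2.21% of the mRNA reads in the TAP-Mmi1 IP, against 9.98% and 17.9% in the GFP-Mmi1 IP, so they bear on the share of every other mRNA. With all 6 left out of the totals, a choice made after seeing the data, the median mRNA moved by -0.14 on the log2 scale, and there were 946 larger and 1015 smaller shares. Each of the 79 named mRNAs kept its direction and its side of the threshold there. Of 9 thiamine-regulated genes, nmt1 included, 3 had a smaller share (33.3%) and 1 a larger share (11.1%), beside 16.9% and 21.6% of all mRNAs tested. These were led by thi2 at -2.35 and pho4 at -1.82, while tnr3 was at 1.09, a call that was lost at 0.88 without TAP-Mmi1 IP replicate 2.

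**Figure D4:**
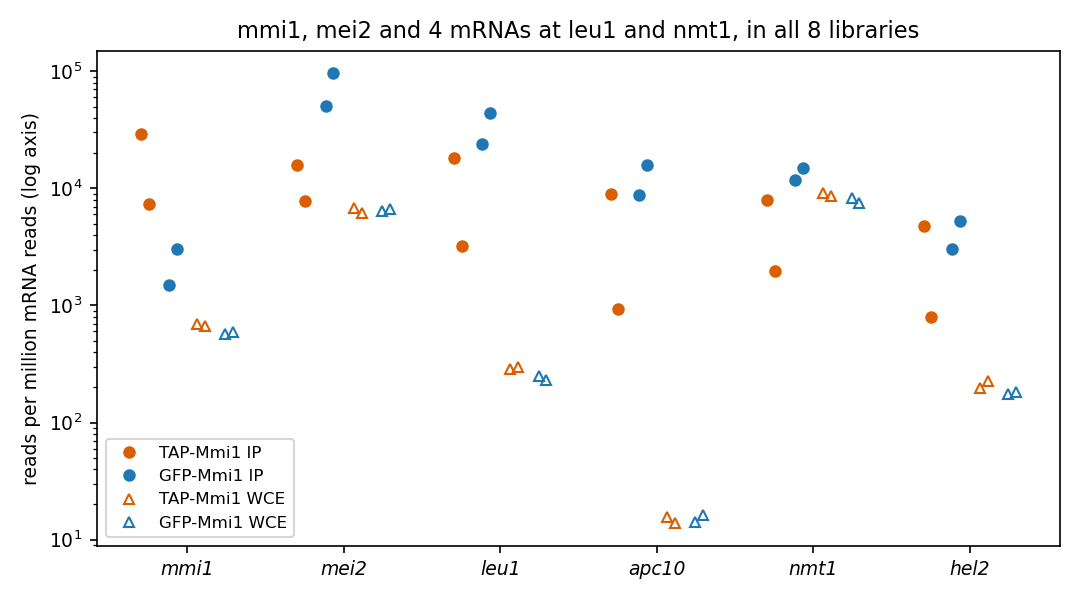
Share of mmi1, mei2, leu1, apc10, nmt1 and hel2 in all 8 libraries, in RPM on a log axis; filled circles are IP libraries and open triangles WCE libraries, orange for TAP-Mmi1 and blue for GFP-Mmi1. The WCE values of the strains nearly coincide, whereas the IP replicates are spread, as for leu1 at 18178 and 3190 in the TAP-Mmi1 IP.

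The whole cell extracts were far more alike than the pulldowns. The same test gave 27 larger and 35 smaller mRNA shares with an absolute log2 difference of at least 1 among 5098 mRNAs tested in the TAP-Mmi1 WCE against the GFP-Mmi1 WCE (1.22%). Of the mRNAs called in the IP comparison, 8 with a larger and 7 with a smaller share were among them. The mRNAs with a larger share in the TAP-Mmi1 IP made up 13.0% and 12.7% of the mRNA reads in the TAP-Mmi1 WCE, against 12.5% and 13.0% in the GFP-Mmi1 WCE. At any size of difference, 506 mRNA shares were larger and 1380 smaller in the TAP-Mmi1 WCE, a split that depended on the scaling and on the GFP-Mmi1 WCE libraries. With TMM there were 793 and 686, without GFP-Mmi1 WCE replicate 1 there were 192 and 391, and without replicate 2 there were 245 and 398.

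The difference in share went with the density of TNAAAC. In mRNAs whose span held no site, the median log2 difference was -0.35, with 8.95% larger and 28.6% smaller shares among 447 tested. The median was -0.16 with up to 1 site per kb, 0.01 from 1 to 2, 0.43 from 2 to 4, and 1.42 in the 206 mRNAs with more than 4 sites per kb, of which 56.3% were larger and 4.85% smaller. For the same motif on the opposite strand the medians ran from -0.10 to 0.43 over the same bins, with 27.1% larger shares in the densest. Within each quartile of span length the median was lowest with no site and highest with more than 4 sites per kb, where it lay between 1.26 and 2.11. The top bin of the longest quartile held 9 mRNAs only.

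Larger shares were also more frequent where sites were clustered, which was not separated from the number of sites. With at least 2 sites in a coding window of 120 bases, 30.0% of 1232 mRNAs had a larger share (median log2 difference 0.27). With at least 3 sites, 51.0% of 157 did (median 0.74). Of the 17 mRNAs with at least 4 sites in a coding window of 120 bases, 14 had a larger share in the TAP-Mmi1 IP, with a median log2 difference of 3.56, beside 21.6% called larger among all mRNAs. Besides the 5 whose windows are printed, they included mcp3, the only mRNA with 5 sites in such a window, with 3219 and 3330 RPM in the TAP-Mmi1 IP, against 122 and 316 in the GFP-Mmi1 IP. They also included the meiotic genes mcp6, moa1 and mug4, at 4.03, 2.91 and 2.49 on the log2 scale. The exceptions were grs1, a tRNA synthetase gene with a smaller share (-1.37), and ape2 and fft3, which did not pass the test (0.42 and -0.37). These mRNAs were named after their values were seen. Conversely, 3.66% of the mRNAs with a larger share and 14.9% of those with a smaller share had no TNAAAC site at all, erh1, qcr9 and SPCC330.19c among the larger and tdh1 and rpl3401 among the smaller.

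The difference also went with the level of the mRNA in the cell and with base composition. Across quartiles of the mean WCE share per kb, the median log2 difference was 0.68 in the lowest, 0.45 and 0.11 in the middle quartiles, and -0.77 in the highest, where 52.5% of mRNAs had a smaller and 7.99% a larger share. Across quartiles of GC content it was 0.71, 0.30, -0.02 and -0.57 from the most AT-rich to the most GC-rich. Since TNAAAC is itself AT-rich and GC-rich mRNAs had the higher WCE share (a median of 98.3 RPM per kb in the top GC quartile and 37.5 in the bottom), these features overlap and were not separated. The median was 0.30 for mRNAs with introns and -0.04 for those without, and over all mRNAs it differed little with span length (0.09 to 0.21) or between chromosomes (0.13, 0.05 and 0.21 on I, II and III). Within the highest quartile of WCE share per kb, it rose from -1.15 in the shortest to -0.58 in the longest spans. Within the lowest it fell from 0.78 to 0.56, and in the middle quartiles it followed no steady order.

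**Figure D5:**
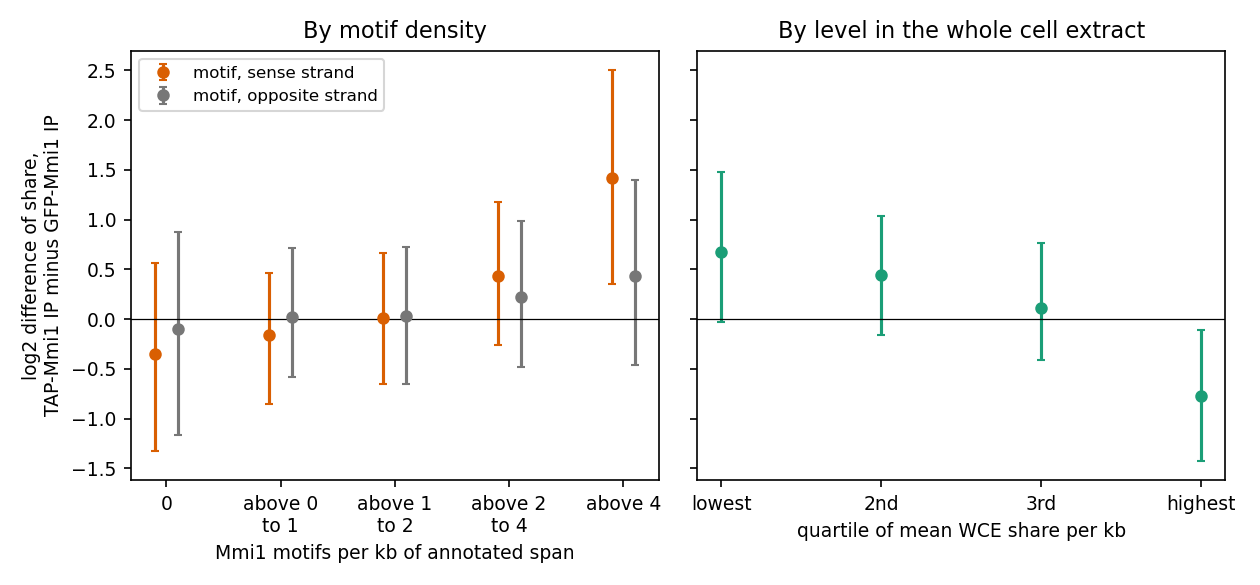
Median log2 difference of share, TAP-Mmi1 IP minus GFP-Mmi1 IP, with bars to the lower and upper quartile of mRNAs, by density of the Mmi1 motif on the sense (orange) or opposite (grey) strand, left, and by quartile of mean WCE share per kb (green), right. The sense-strand medians run from -0.35 with no motif to 1.42 with more than 4 per kb, and the WCE medians from 0.68 in the lowest to -0.77 in the highest quartile.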

How the data were processed

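Each library has a deposited table of raw counts by feature, neither normalized nor pooled by the authors. Per the methods, reads were demultiplexed (bcl2fastq 2.18.12), trimmed (Cutadapt 1.15), aligned (Bowtie2) and counted (MulticovBed). The genome build, annotation and strand setting are not given in the sources used here. A row whose id is the text NA names no gene and was left out of totals and tests (0.031% and 0.055% of counts with TAP-Mmi1, 0.0022% and 0.0018% with GFP-Mmi1, IP libraries). Ids were matched to RefSeq (ASM294v3) for names, spans and sequence, and 1694 of 1708 mRNAs of the study's own coordinate table had the same start or end there.

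Counts of mRNA ids were scaled to each library's mRNA total and tested with edgeR 4.0.16 in R 4.3.3, using filterByExpr by group and the robust quasi-likelihood fit of TAP-Mmi1 minus GFP-Mmi1, on both sides, with Benjamini-Hochberg adjustment over all mRNAs tested. Standard errors were taken as the size of the log2 difference divided by root F. On simulated data of this comparison (5058 mRNAs, 200 changed 4-fold), 192 were recovered with 10 false calls. Far more mRNAs were called in the real libraries, with 1094 larger and 857 smaller shares. The recovery was not broken down by count or by the spread between replicates. It is therefore no measure of the sensitivity of the real comparison. Alternatives were TMM, DESeq2 1.42.0, other totals, no filter, the replicate number as a block, all 8 libraries, no overlapped mRNAs, and leaving out each library.

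The mRNAs and the 17 gene lists were chosen with earlier results of these data known. Named were the 10 highest and 10 lowest log2 differences past the threshold with at least 50 counts in both libraries of the higher group, the 10 largest gains and losses of mean share, mmi1 and mei2, up to 2 members at each end of each list (or, with none called, the 2 most counted), and act1, adh1, ssm4, mei4 and num1 (79 mRNAs).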

Additional observations from a re-analysis of the deposited data

How the results depend on the processing

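The direct comparison kept its counts within 1.5 times under TMM, DESeq2, no filter, the totals without mei2 and mmi1 or without 6 ids, the fit of all 8 libraries, a log2 difference of at least 1, and leaving out overlapped mRNAs. With the replicate number as a block it gave 1038 larger and 788 smaller shares, and no named mRNA changed its call; the labels do not say that equal numbers share a culture, and the replicates' deviations were not correlated between strains (r = -0.033, IP). Leaving out single libraries gave 614 to 1345 larger and 565 to 969 smaller shares. Scaling to all listed features gave 4491 larger and 14 smaller shares, since mRNAs took up more of all counts with TAP-Mmi1. There 14 called and named mRNAs turned, to log2 differences of 0.20 (pma1), 0.78 (ssa2), 0.56 (dmc1), 0.0906 (isp3), 0.75 (spn2), 0.0662 (mam3), 0.46 (map4), 1.30 (mtr4), 0.63 (caf1), 0.63 (htb1), 0.69 (hta1), 0.12 (adg2), 0.30 (pho4) and 1.42 (cdc22), as did leu1 (0.50), nmt1 (0.74) and apc10 (0.86), which were not called before, and another 14 called mRNAs were no longer past the threshold. The split of calls was 56.1% larger in the direct comparison, 50.8% with TMM and 49.1% with DESeq2, under which the median mRNA moved by -0.12. For the WCE comparison, the 506 larger and 1380 smaller shares became 793 and 686 with TMM and 719 and 618 with DESeq2, and ranged over 192 to 622 and 391 to 1586 when single libraries were left out. The replicate block gave 443 and 1233 there. The cause of these WCE changes was not tested. Depth limited mRNAs of low share, as 308 and 322 mRNAs had under 10 counts in the GFP-Mmi1 IP libraries, beside 55 and 82 in the TAP-Mmi1 IP.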
